A study of Mus musculus with 6 samples.

Results

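The genes described here are the mouse replication-dependent histone genes, taken as every row of the count table whose Ensembl identifier belongs to a protein-coding gene with a symbol starting Hist1h, Hist2h, Hist3h or Hist4h in GENCODE M21 (GRCm38) and that had at least 1 count in some library. By symbol the rule met 70 genes, of which 3 are annotated pseudogenes and were left out. Of the 67 protein-coding genes, 5 had 0 counts in all libraries (Hist1h2aa, Hist2h2aa1, Hist1h2ao, Hist1h2ap and Hist2h3c1), which leaves 62 genes of the 55487 in the table. They comprise 6 genes for H1, 14 for H2A, 18 for H2B, 11 for H3 and 13 for H4. A count of 0 allows up to 3 counts, which is 0.259 to 0.312 CPM (counts scaled to library size) depending on the library, counting error only.

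Total RNA was sequenced from the visual cortex of mice aged 28 postnatal days that carry 0, 1 or 2 copies of a mutation in the UTR of Mmp9, an extracellular matrix protease. All animals were of the strain B6.CBA/Tar. The 3 genotypes were wild type (WT/WT, here WT), heterozygous (UTRmut/WT) and homozygous (UTRmut/UTRmut), with 2 libraries each: replicate 1 from a female and replicate 2 from a male. The labels name a single mutant line and do not say whether a library came from 1 animal, and any p-value here therefore reflects the spread among 6 libraries alone, part of which may be technical. The libraries held 9500090 to 11966579 counts. The 6 markers of cortical neurons were all present, with summed levels of 3097 to 3408 CPM. In whole tissue, fewer cells of a type and less RNA per cell cannot be told apart.

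Replication-dependent histone genes supply the histones that package newly copied DNA, and their transcription peaks in S phase. H2A, H2B, H3 and H4 form the core of the nucleosome, and H1 binds the linker DNA between nucleosomes. Their messenger RNAs are the main exception to polyadenylation in animals: the 3′ end is cut just past a conserved stem-loop, which the stem-loop binding protein Slbp holds, and carries no poly(A) tail. A library made from total RNA keeps such transcripts. In differentiated cells some of these genes are also known to make polyadenylated, longer transcripts.

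The stem-loop is the feature that sets these genes apart from other messenger RNAs and was not used to choose them. The pattern searched was the 16 capital letters printed below for Hist1h1e with positions 4, 8 and 13, from the 5′ end, free to be any base. Read on the transcript strand of the GENCODE M21 transcripts, it occurred in 34 of the 67 histone genes (50.7%) and in 2 of 21830 other protein-coding genes (0.00916%). Those 2 were H2bfm, another histone gene, and Trim17, which overlaps Hist3h2a. Allowing 1 mismatch added 10 histone genes. Below are stem-loops from the genes with the most counts in each class from Hist4h4, which the last comparison turns on, and from Hist1h4a and Hist2h4, H4 genes whose letters differ. Capitals mark the 16 stem-loop letters, lower case the 5 bases on either side, each is written 5′ to 3′, and the GRCm38 coordinates give the capitals.
Hist1h1e (chr13:23621782-23621797, minus strand): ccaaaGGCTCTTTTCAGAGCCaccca
Hist3h2a (chr11:58955172-58955187, plus strand): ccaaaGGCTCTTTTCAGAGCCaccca
Hist3h2ba (chr11:58949349-58949364, plus strand): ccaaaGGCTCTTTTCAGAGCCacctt
Hist1h3e (chr13:23561903-23561918, minus strand): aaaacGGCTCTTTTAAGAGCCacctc
Hist1h4d (chr13:23581950-23581965, plus strand): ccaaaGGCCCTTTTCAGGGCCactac
Hist1h4a (chr13:23760800-23760815, minus strand): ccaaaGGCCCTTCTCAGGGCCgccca
Hist2h4 (chr3:96262939-96262954, minus strand): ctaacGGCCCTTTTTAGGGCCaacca
Hist4h4 (chr6:136803998-136804013, minus strand): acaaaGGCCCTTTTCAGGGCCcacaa

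The stem-loops fell into an H4 form and a form used by the other classes. Of the 44 found with up to 1 mismatch, all 10 in H4 genes began with GGCCC, whereas 0 of the 34 in H1, H2A, H2B and H3 genes did, and these began with GGCTC. The commonest letters of H1, H2A, H2B and H3 genes, those of Hist1h1e, Hist3h2a and Hist3h2ba, were shared by 26 genes. The letters of Hist1h4d and Hist4h4 were shared by 7 H4 genes. Hist1h4a and Hist2h4 differ from these within the loop, and Hist1h3e shows a loop form found in 6 genes of H1, H2B and H3. No match was found in 23 genes, of which 16 have an annotated 3′ UTR under 40 bases in length. The other 7 were Hist1h1a, Hist1h2bc, Hist1h2bq, Hist1h2br, Hist2h2be, Hist1h4b and Hist1h4j, with annotated 3′ UTRs of 48 to 2192 bases.

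Of the 62 genes, 51 lie on chromosome 13, 8 on chromosome 3, 2 on chromosome 11 (Hist3h2a and Hist3h2ba) and 1 on chromosome 6 (Hist4h4). Chromosome 13 holds them in 2 groups, 30 genes between positions 23531050 and 23934156 and 21 genes between 21715763 and 22043676. A single exon is annotated for 57 of the 62.

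H4 genes gave most of the histone counts. Over all libraries, H4 made up 56.2% of the counts on the 62 genes, H1 19.4%, H2B 14.2%, H3 5.80% and H2A 4.43%. The median level per gene, as CPM per kb of exon, was 12.03 for H4, 6.71 for H1, 1.77 for H2B, 1.68 for H3 and 0.618 for H2A. Together the 62 genes took 0.0339% to 0.0457% of a library. A gene entered the tests below with a minimum count of 10 in enough libraries for its group size, and 42 of the 62 did: 13 of H4, 11 of H2B, 7 of H3, 6 of H2A and 5 of H1. The other 20 averaged 0.00656 to 1.11 CPM per kb and are given only by level. Those just inside the rule, with 1 count in all, were Hist1h2ah, Hist1h2ba, Hist1h2bq and Hist1h2br.

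Within the H4 class, which is the same protein from many gene copies, levels spread widely. In the value sentences from here on, the female library is given first and the male second within each genotype. Hist1h4d had the highest level per length of all 62 genes, 66.7 CPM per kb, and stood at 68.5 and 64.4 CPM in WT, 71.7 and 91.4 CPM in heterozygotes and 69.6 and 89.6 CPM in homozygotes. Next came Hist1h4h, 49.8 CPM per kb, with 21.1 and 24.3 CPM in WT, 22.4 and 26.4 CPM in heterozygotes and 19.2 and 26.98 CPM in homozygotes. Hist1h4c averaged 47.7 CPM per kb, with 36.4 and 31.4 CPM in WT, 36.8 and 48.9 CPM in heterozygotes and 38.9 and 42.6 CPM in homozygotes. The male heterozygous and homozygous libraries were the highest for each of the 3, and for Hist1h4d and Hist1h4c the WT libraries were both below every heterozygous and homozygous library. Hist1h4f, 45.4 CPM per kb, stood at 14.9 and 18.3 CPM in WT, 17.3 and 18.5 CPM in heterozygotes and 17.7 and 19.8 CPM in homozygotes, with the WT female lowest. Hist1h4k, 26.6 CPM per kb, stood at 7.33 and 6.39 CPM in WT, 7.50 and 10.4 CPM in heterozygotes and 7.75 and 10.4 CPM in homozygotes, with both WT libraries lowest and the heterozygous and homozygous males highest. Hist1h4d alone made 34.1% of the H4 counts.

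The linker histone genes Hist1h1e and Hist1h1c led the H1 class, and the models of Hist1h2be and Gm11398 overlap Hist1h1e on the same strand. Hist1h1e stood at 31.8 and 27.3 CPM in WT, 36.2 and 37.4 CPM in heterozygotes and 28.1 and 35.9 CPM in homozygotes, so both heterozygous libraries were above all others, and it made 42.6% of the H1 counts. Hist1h1c stood at 22.6 and 20.99 CPM in WT, 23.7 and 25.7 CPM in heterozygotes and 23.7 and 27.7 CPM in homozygotes, with both WT libraries the lowest. Hist1h1a gave 9.45 and 7.77 CPM in WT, 5.21 and 8.50 CPM in heterozygotes and 7.10 and 9.49 CPM in homozygotes, and the groups overlapped. Hist1h1b gave 1.06 and 3.54 CPM in WT, 1.15 and 2.06 CPM in heterozygotes and 2.34 and 2.002 CPM in homozygotes, with the highest value in the WT male and the lowest in the WT female.

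Among H2B genes Hist3h2ba on chromosome 11 was the most abundant per length, 22.5 CPM per kb, and stood at 14.5 and 11.1 CPM in WT, 14.2 and 13.2 CPM in heterozygotes and 11.6 and 18.5 CPM in homozygotes. Hist2h2bb, which overlaps Gm20628 on the opposite strand and Gm42743 on the same strand, gave 5.79 and 4.49 CPM in WT, 5.31 and 5.98 CPM in heterozygotes and 4.67 and 6.53 CPM in homozygotes. Genotypes overlapped for both. Hist1h2bc gave 10.03 and 12.4 CPM in WT, 11.7 and 13.5 CPM in heterozygotes and 12.4 and 12.4 CPM in homozygotes, with the WT female lowest. Hist1h2bb gave 3.28 and 3.37 CPM in WT, 4.89 and 5.14 CPM in heterozygotes and 3.55 and 4.87 CPM in homozygotes, with both WT libraries below the rest and both heterozygous libraries above.

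H2A genes were low. Hist3h2a, which a Trim17 model overlaps, was 45.9% of the H2A counts at 9.36 and 6.13 CPM in WT, 8.33 and 7.01 CPM in heterozygotes and 7.28 and 10.3 CPM in homozygotes. Hist2h2ab gave 2.41 and 1.47 CPM in WT, 2.81 and 2.80 CPM in heterozygotes and 1.40 and 3.83 CPM in homozygotes. Hist2h2ac gave 2.12 and 2.76 CPM in WT, 2.29 and 1.21 CPM in heterozygotes and 3.08 and 2.52 CPM in homozygotes. The genotypes overlapped for Hist3h2a, while Hist2h2ab was above both WT libraries in both heterozygotes and in only 1 of the homozygotes. Hist1h2ak gave 0.868 and 1.04 CPM in WT, 1.87 and 2.43 CPM in heterozygotes and 1.12 and 1.83 CPM in homozygotes, with both WT libraries the lowest and both heterozygous libraries the highest.

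H3 genes were led by Hist1h3i, 10.5 CPM per kb, with 3.67 and 4.75 CPM in WT, 5.10 and 3.92 CPM in heterozygotes and 3.83 and 4.61 CPM in homozygotes. Hist1h3e, 29.3% of the H3 counts, gave 5.40 and 6.56 CPM in WT, 6.45 and 8.78 CPM in heterozygotes and 4.02 and 8.96 CPM in homozygotes. In that gene the 3 males stood above the 3 females. Hist1h3f gave 3.38 and 4.66 CPM in WT, 4.79 and 5.51 CPM in heterozygotes and 4.30 and 7.75 CPM in homozygotes, and within each genotype the male was higher. Hist1h3h gave 1.16 and 2.07 CPM in WT, 1.35 and 1.21 CPM in heterozygotes and 1.12 and 1.39 CPM in homozygotes, with the WT male highest and the groups overlapping.

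**Figure D1:**
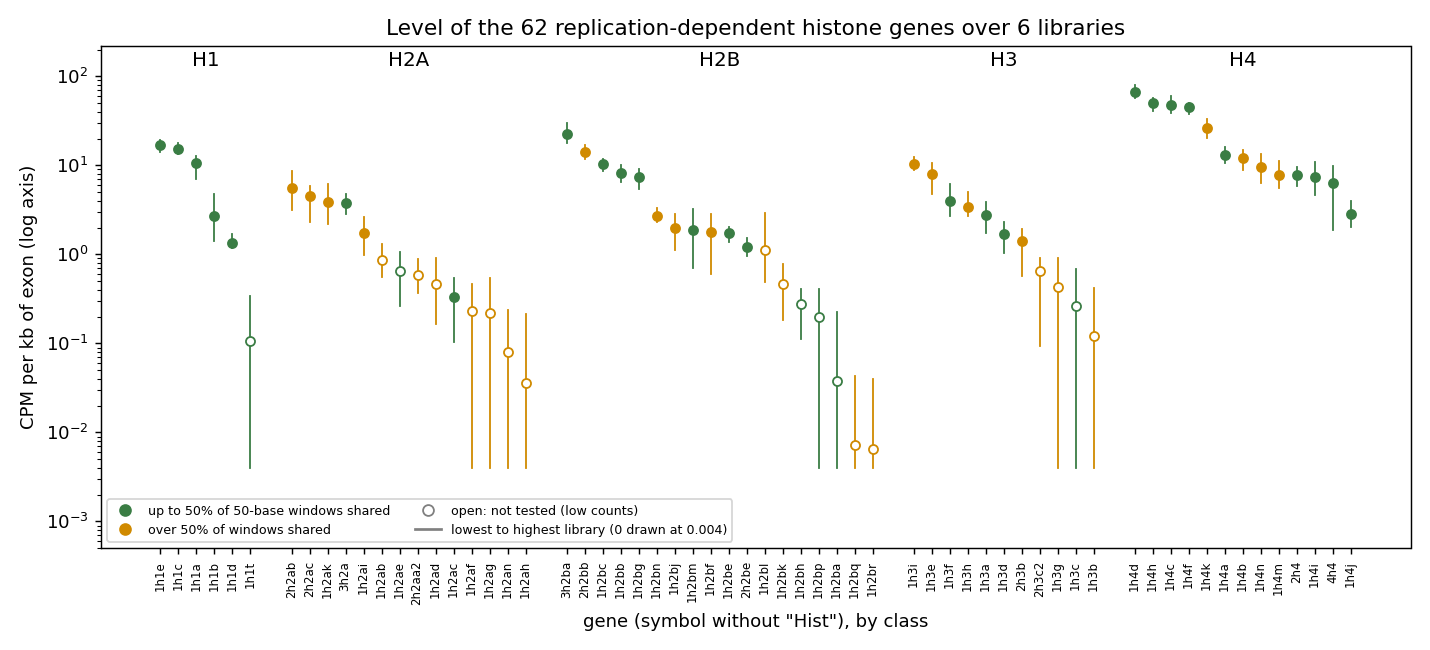
Level of each of the 62 histone genes, ordered by class and by level, as CPM per kb of exon on a log axis. Points are the mean of 6 libraries, lines run from the lowest to the highest library, orange marks genes with over 50% of their 50-base windows found in another gene and open points were not tested. Hist1h4d is highest at 66.7 CPM per kb, and the H2A class holds many genes below 1.

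How these counts split between near-identical copies and overlapping gene models bears on many single-gene values. Of the 67 genes, 34 have more than 50% of their transcript's 50-base windows in a transcript of another gene, and their 30 members hold 13.0% of the histone CPM at a median of 1.59 CPM per kb. The other 33 genes hold 87.0% at a median of 3.89 CPM per kb. Windows were matched on either strand, and overlapping gene models counted as other genes. Every match of Hist2h2bb was to Gm20628 or Gm42743, which overlap it. The top partner of Hist2h2ab was Gm15444, which overlaps it on the opposite strand. The median share of windows in another gene was 73.0% for H2A, 61.95% for H3, 46.9% for H2B, 39.5% for H4 and 1.13% for H1. From H2A through H3 and H2B to H4 the median level was higher as the shared part was smaller. H1, with the smallest shared part, lay below H4. Within H1, Hist1h1e has 32.0% shared and the highest level, 16.98 CPM per kb. Hist1h1c has 8.54% shared at 15.4 CPM per kb and Hist1h1d 2.25% at 1.33. Hist1h1a, Hist1h1b and Hist1h1t, with 0% shared, had 10.7, 2.72 and 0.11 CPM per kb. Whether the counting left out reads that match several genes was not tested. Among the genes above, Hist1h4d has 10.2% of windows shared and Hist4h4 8.52%, while Hist1h3i has 87.6%, Hist1h3h 93.9%, Hist1h4k 71.5% and Hist2h2bb 100%, so the last 4 are uncertain. The same holds for Hist1h3e at 73.4%, Hist2h2ab at 64.8%, Hist1h2ak at 57.0% and Hist2h2ac at 55.0%. Of the genes at 0 in all libraries, Hist2h2aa1 and Hist2h3c1 have 100% shared, Hist1h2ao 93.5%, Hist1h2ap 93.1% and Hist1h2aa 23.8%. Except for Hist1h2aa, these 0 counts are uncertain too. Genes whose model runs more than 100 bases past the stem-loop, 22 genes, held 69.7% of the histone CPM at a median of 6.43 CPM per kb, and the 22 whose model ends within 100 bases held 15.5% at a median of 1.80. The count table does not say where in a gene the reads fell. All 18 H2A genes overlap a gene model on the opposite strand, for 17 a miRNA model. These 17 models had 16 counts in all. The strand setting of the counting is not given. Those counts therefore cannot show whether H2A reads were left out at the overlaps. Windows found in such models are part of the H2A share given above.

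The first comparison asks what each genotype did to histone RNA. No single histone gene passed the test in the homozygous or in the heterozygous libraries against WT, although more of them had values above WT than below. Summed over all 62 genes, WT libraries had 363.4 and 367.6 CPM, heterozygotes 384 and 452.1 CPM and homozygotes 345.2 and 461.2 CPM. The means were 365.5 ± 2.95 CPM in WT, 418.1 ± 48.2 in heterozygotes and 403.2 ± 82.0 in homozygotes (SD, n = 2 each). Both heterozygous libraries were above both WT libraries, while the homozygous libraries lay on either side of WT and were the lowest and the highest of all. The 4 oligodendrocyte markers, none at 0, also summed to their lowest in the homozygous female (2293 CPM) and their highest in the homozygous male (3071 CPM), with 2850 to 2939 CPM in the other 4 libraries. Their part in the histone values was not tested.

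For H4 the summed level was 202.0 and 203.2 CPM in WT, 208.6 and 263.9 CPM in heterozygotes and 191.6 and 264.2 CPM in homozygotes. H1 gave 74.1 and 69.9 CPM in WT, 75.7 and 86.1 CPM in heterozygotes and 70.9 and 83.9 CPM in homozygotes. H2B gave 52.2 and 54.8 CPM in WT, 56.3 and 59.8 CPM in heterozygotes and 49.9 and 63.5 CPM in homozygotes. H3 gave 17.6 and 25.1 CPM in WT, 23.7 and 26.1 CPM in heterozygotes and 16.7 and 28.0 CPM in homozygotes. H2A gave 17.5 and 14.5 CPM in WT, 19.7 and 16.2 CPM in heterozygotes and 16.1 and 21.5 CPM in homozygotes. In all 5 classes the heterozygous library was above the WT library of the same sex, only the male of the 2 homozygous libraries was above both WT libraries, and the homozygous female was lower than the homozygous male. The log2 ratio of the class means, homozygous over WT, was 0.17 for H4, 0.10 for H1, 0.08 for H2B, 0.06 for H3 and 0.23 for H2A. Without the homozygous male it was -0.08 for H4, -0.02 for H1, -0.10 for H2B, -0.36 for H3 and 0.01 for H2A. Without the homozygous female it was 0.38 for H4, 0.22 for H1, 0.25 for H2B, 0.39 for H3 and 0.43 for H2A. A class sum gets no test here, because the genes were chosen with earlier results known.

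**Figure D2:**
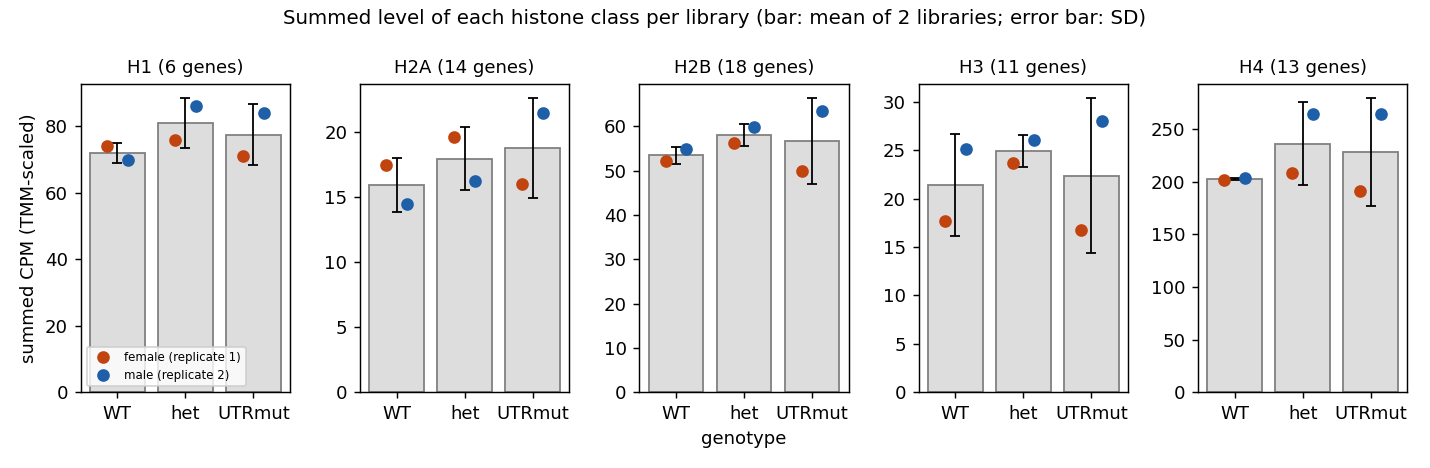
Summed level of each histone class in TMM-scaled CPM per library, by genotype, with bars for the mean of 2 libraries, error bars for the SD and points for the female and male libraries. In H4 both WT libraries lie at 202.0 and 203.2 CPM, whereas the homozygous libraries lie at 191.6 and 264.2 CPM.

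In homozygous against WT libraries, 0 of the 42 tested histone genes passed an adjusted p of 0.05 in edgeR's quasi-likelihood test with Benjamini-Hochberg adjustment over 16119 genes, where 0.0062% of all genes passed. DESeq2 also called 0 of the 42, in this and in the next 4 comparisons. At an unadjusted p under 0.05 there were 0 histone genes against 2.71% of all genes. The log2 fold was positive in 27 of 42, against 47.9% of all genes, with a median of 0.08 against -0.01. Groups did not overlap, with homozygotes higher, in 6 of 42 histone genes (Hist1h1c, Hist1h2ak, Hist1h2bb, Hist1h4d, Hist1h4c and Hist1h4k) against 14% of all genes. They did not overlap the other way in 3 of 42 (Hist1h2bn, Hist2h2be and Hist1h3d) against 14.6%. Hist1h4d had a log2 fold of 0.26 (SE 0.14), Hist1h4c one of 0.27 (SE 0.14) and Hist1h1c one of 0.24 (SE 0.14). Of the H4 genes, 12 of 13 had a positive fold with a median of 0.09, and Hist4h4 was the exception at -0.14 (SE 0.95). The balance rests on the homozygous male: without that library 18 of 44 tested members had a positive fold and the median was -0.13, and without the WT female 22 of 44 did.

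In heterozygous against WT libraries, 0 of the 42 passed in the same edgeR test, where 0.0124% of all genes did. At an unadjusted p under 0.05 there were 3 of 42 histone genes against 2.37% of all genes, and their adjusted p was 0.9998. These were Hist1h2ak with a log2 fold of 1.17 (SE 0.45), Hist1h4c with 0.34 (SE 0.14) and Hist1h1e with 0.32 (SE 0.14). The log2 fold was positive in 30 of 42, against 48.9% of all genes, with a median of 0.13 against 0.00. Groups did not overlap, with heterozygotes higher, in 14 of 42 histone genes against 13.4% of all genes. Among the 14 were the H1 genes Hist1h1e and Hist1h1c and the H4 genes Hist1h4d, Hist1h4c, Hist1h4k, Hist1h4b, Hist1h4m and Hist2h4. Groups did not overlap the other way in 1 of 42, Hist2h2be, against 13.6%. Without the WT female, 24 of 44 tested members had a positive fold and the median was 0.05. Both comparisons use the same 2 WT libraries, and near-identical copies do not count as independent genes.

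Homozygous against heterozygous libraries differed in 0 of 42 histone genes in the edgeR test, where 0.0124% of all genes passed. At an unadjusted p under 0.05 only Hist1h3d was found, with a log2 fold of -0.83 (SE 0.38) and an adjusted p of 0.9999 after Benjamini-Hochberg adjustment in edgeR, where 2.8% of all genes were found. That H3 gene gave 1.93 and 2.42 CPM in WT, 2.39 and 2.90 CPM in heterozygotes and 1.31 and 1.65 CPM in homozygotes, with both homozygous libraries the lowest. Groups did not overlap, with homozygotes lower, in 8 of 42 histone genes against 17.9% of all genes. With homozygotes higher they did not overlap in 2 of 42, Hist2h2ac and Hist2h2be, against 16.4%. As a change per mutant allele, 0 of 42 histone genes and 0% of all genes passed, and 0 histone genes against 3.12% of all genes had an unadjusted p under 0.05.

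**Figure D3:**
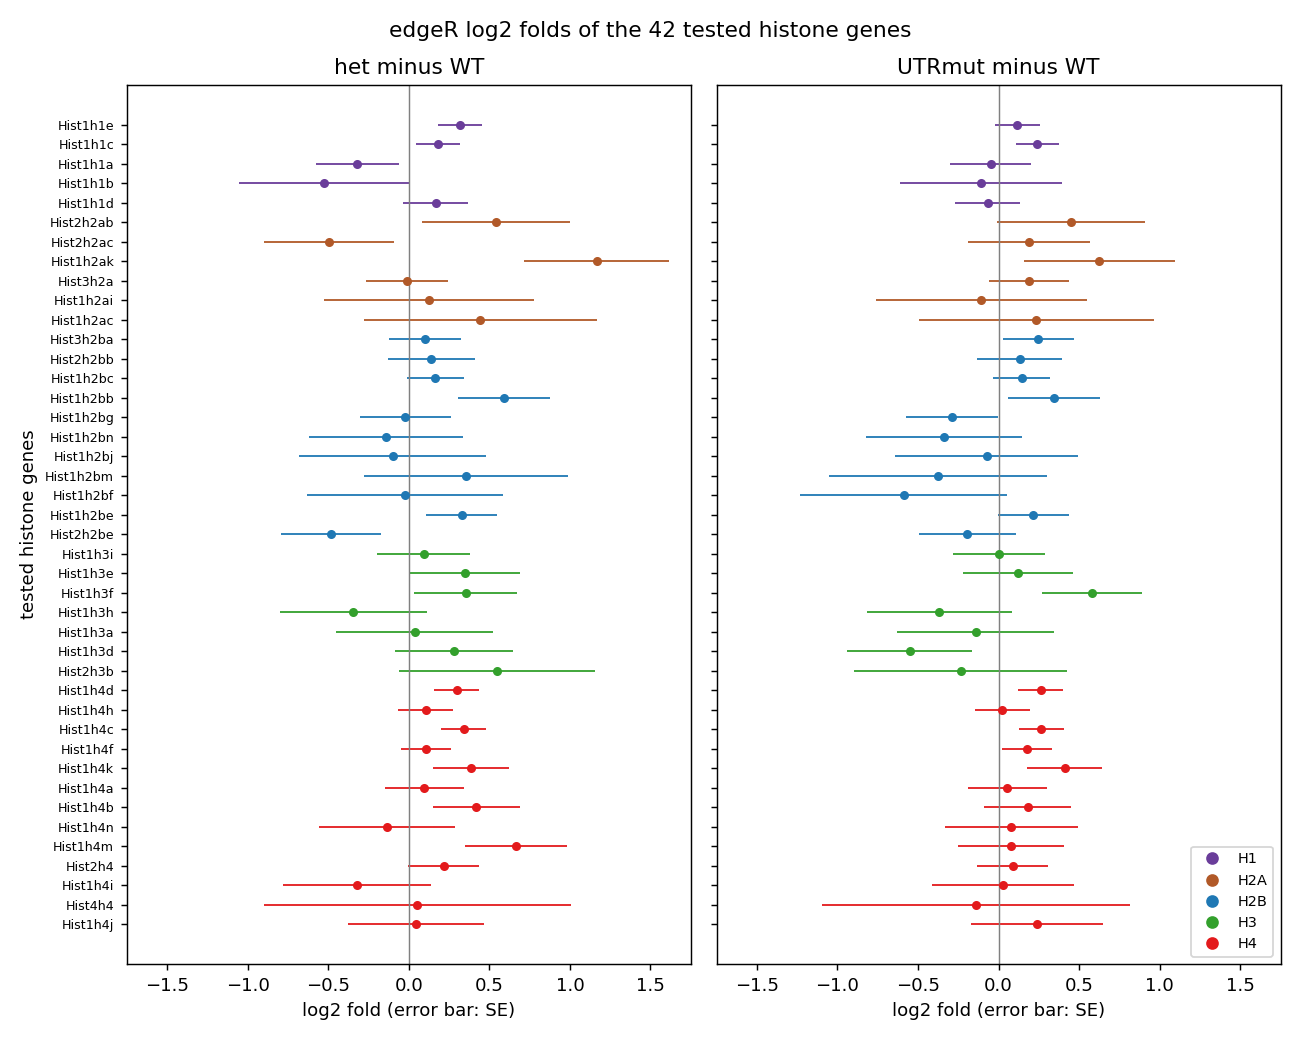
Log2 folds with standard errors of the 42 tested histone genes against WT, from edgeR, heterozygous on the left and homozygous on the right, coloured by class. The 2 panels share the WT libraries. Hist1h2ak has the largest positive fold in each panel, 1.17 and 0.63, and none passed the adjusted threshold.

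The other genes of the histone pathway, from lists of 3′ processing, chaperone, replication-independent histone, S phase and nonpolyadenylated RNA genes, mostly did not pass the test in these 2 comparisons with WT either. Of the 3′ processing and turnover list, 16 of 20 names were in the annotation and 0 of the 15 tested passed in either comparison. In it Slbp gave 14.2 and 15.98 CPM in WT, 14.1 and 16.4 CPM in heterozygotes and 15.8 and 17.8 CPM in homozygotes, and Upf1, which acts in the decay of histone RNA, had a log2 fold of -0.19 (SE 0.10) in homozygotes against WT. Srrt, a cap-associated factor, had 0.25 (SE 0.10) in heterozygotes against WT. Of the histone chaperones, 0 of 13 tested passed. Of the replication-independent histones, which are made throughout the cell cycle, 0 of 11 passed, and 10 had a positive fold in homozygotes with a median of 0.09. Their H3f3b had a log2 fold of 0.21 (SE 0.10). Of 21 tested S phase and proliferation genes 0 passed, with medians of -0.03 in homozygotes and -0.01 in heterozygotes against WT. The proliferation marker Mki67 gave 1.83 and 3.46 CPM in WT, 1.67 and 1.31 CPM in heterozygotes and 0.0934 and 0.696 CPM in homozygotes, so the 2 homozygous libraries were the lowest, with a log2 fold of -2.69 (SE 0.62) and an adjusted p of 0.9988 in edgeR after Benjamini-Hochberg adjustment. Top2a, which untangles DNA in dividing cells, gave 0.579 and 1.64 CPM in WT, 1.04 and 1.21 CPM in heterozygotes and 0.280 and 0.435 CPM in homozygotes.

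Other RNAs without a poly(A) tail were read beside the histone genes. Nearly all of the counts on the 10 noncoding RNAs of that list came from Rn7sk, an RNA that restrains transcription elongation, which stood at 15420 and 15530 CPM in WT, 16780 and 19370 CPM in heterozygotes and 16360 and 17280 CPM in homozygotes. Rn7sk was highest in the heterozygous and homozygous males, as the histone sum was, and lowest in the WT libraries. The 8 list members other than Rn7sk and Rn7s1, of which Rmrp and Terc were at 0 in all libraries, summed to 124 and 90.3 CPM in WT, 103 and 109 CPM in heterozygotes and 89.2 and 105 CPM in homozygotes and were highest in the WT female. The part of such RNAs in the histone values was not tested. Rn7s1, an RNA of the signal recognition particle, gave 5.50 and 4.84 CPM in WT, 91.6 and 153 CPM in heterozygotes and 5.98 and 6.27 CPM in homozygotes. It was the only gene of the list that passed against WT, with a log2 fold of 4.57 (SE 0.29) in heterozygotes against WT and an adjusted p of 0.00784 in edgeR after Benjamini-Hochberg adjustment.

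The next comparison asks how the sexes differ within genotypes, and in it sex cannot be told apart from replicate number. The histone genes had lower values in the females for most members. Summed over the 62 genes, the male was 1.01 times the female in WT, 1.18 times in heterozygotes and 1.34 times in homozygotes. Female minus male, the log2 ratio of the summed means was -0.23 for all, -0.45 for H3, -0.28 for H4, -0.17 for H2B, -0.12 for H1 and 0.03 for H2A. In edgeR's test, with genotype in the model, 0 of 42 histone genes passed, where 0.0372% of all genes did, and at an unadjusted p under 0.05 there were 8 of 42 against 6.99% of all genes. The log2 fold, female minus male, was negative in 35 of 42 against 50.4% of all genes, with a median of -0.25 against 0.00.

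Male libraries stood above the female of the same genotype in all 3 genotypes for 15 of 42 histone genes, against 14.3% of all genes. For 3 of 42 the female stood above in all 3 genotypes, against 14.5%. In 9 of 42 the 3 males stood above all 3 females, against 5.84% of all genes. These were Hist1h2bc, Hist1h2bg and Hist1h2bm of H2B, Hist1h3e and Hist1h3a of H3, and Hist1h4h, Hist1h4f, Hist1h4n and Hist1h4j of H4. The reverse was seen in 1 of 42, Hist1h2ac, against 6.45%. Hist1h4n gave 2.70 and 5.61 CPM in WT, 3.02 and 4.58 CPM in heterozygotes and 2.99 and 5.83 CPM in homozygotes, so each male was well above every female. Its log2 fold was -0.88 (SE 0.22), the smallest unadjusted p among the members, with an adjusted p of 0.512 in edgeR after Benjamini-Hochberg adjustment. Hist1h2bm gave 0.482 and 1.47 CPM in WT, 0.833 and 1.68 CPM in heterozygotes and 0.374 and 1.13 CPM in homozygotes, with a log2 fold of -1.35 (SE 0.42). Hist1h2ac went the other way with 1.16 and 0.259 CPM in WT, 1.35 and 0.561 CPM in heterozygotes and 1.12 and 0.522 CPM in homozygotes, and a log2 fold of 1.43 (SE 0.46). The other 5 of the 8 with an unadjusted p under 0.05 were Hist1h3e at -0.62 (SE 0.21), Hist1h3f at -0.52 (SE 0.21), Hist1h4h at -0.31 (SE 0.11), Hist2h4 at -0.37 (SE 0.15) and Hist1h4j at -0.66 (SE 0.28), all lower in females. Hist1h4m, one of the 3 genes higher in each female, gave 2.99 and 2.25 CPM in WT, 4.48 and 3.83 CPM in heterozygotes and 3.08 and 2.44 CPM in homozygotes. Hist1h4n and Hist1h4m have 85.6% and 89.8% of their windows in other genes, each most often in the other, so how reads were split between them is uncertain.

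**Figure D4:**
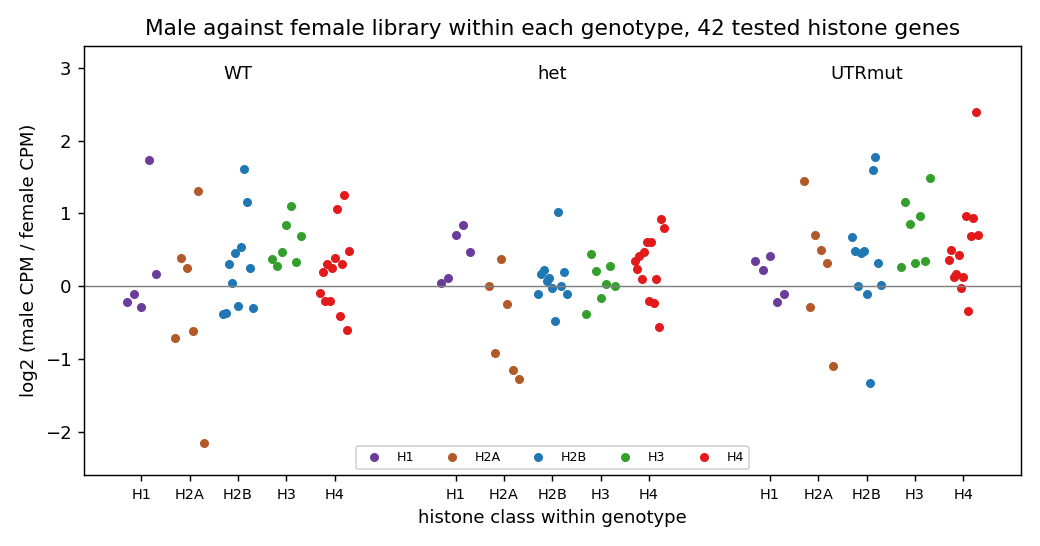
Log2 of the male over the female library within each genotype for the 42 tested histone genes, by class, with 0 marking equal levels. In homozygotes 34 of the 42 points lie above 0, against 27 in WT and 26 in heterozygotes, and the medians of the ratio are 1.31, 1.20 and 1.08.

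Markers of other tissue and of dividing cells were read beside this. The 4 choroid plexus markers, none at 0, summed to 3.28 and 47.9 CPM in WT, 3.85 and 4.67 CPM in heterozygotes and 2.24 and 9.66 CPM in homozygotes. Males and females did not overlap, but only the WT male, 1 of the 2 WT libraries, stood far above the rest. The summed S phase list ran from 124.9 to 135.5 CPM in females and from 132.5 to 144.1 CPM in males. Meningeal markers ran from 38.7 to 54.3 CPM in females and from 50.5 to 85.9 CPM in males, highest in the WT male. Of the S phase list 15 of 21 tested genes had a negative log2 fold, female minus male, with a median of -0.12, and 9 of 11 replication-independent histones did with a median of -0.11, and 0 of either list passed. Their part in the histone values was not tested. With either WT library left out, the other carries no sex difference, so female minus male rests on the heterozygous and homozygous pairs. The median log2 fold of the tested members was then -0.27 without the WT female and -0.27 without the WT male. Hist4h4 and Hist1h4d were higher in the WT female than in the WT male, and lower in the female of each other genotype. The same order was seen for Hist1h1e, Hist1h1c, Hist1h1a, Hist2h2bb, Hist1h4c and Hist1h4k.

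The last comparison asks whether the change per mutant allele differs between females and males. Hist4h4, an H4 gene alone on chromosome 6, fell with each allele in the females and was higher with each allele in the males, and it was the only one of 42 histone genes that passed, where 1.2% of all genes did. Its counts were 236 and 173 in WT, 129 and 272 in heterozygotes and 58 and 327 in homozygotes, or 22.8 and 14.9 CPM in WT, 13.4 and 25.4 CPM in heterozygotes and 5.42 and 28.5 CPM in homozygotes. The female was above the male in WT and below it in both other genotypes. Homozygous over WT, its level was 0.238 in females and 1.91 in males, and heterozygous over WT 0.59 and 1.70. The log2 difference per allele, female minus male, was -1.44 (SE 0.15), with an adjusted p of 0.00017 in edgeR after Benjamini-Hochberg adjustment. There is 1 library for each genotype and sex, so the gene's own error is its departure from a straight line. That leaves 2 residual degrees of freedom. The edgeR test combines this error with the spread estimated over all genes. The adjusted p therefore does not rest on the values of Hist4h4 alone. Leaving out each library in turn gave -1.76 to -1.15. In each such fit 1 sex keeps 2 libraries, which a line meets exactly, so only the size of the difference is given. DESeq2 called 0 histone genes here and gave Hist4h4 no adjusted p, and it called Hist4h4 once its independent filtering was turned off.

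At an unadjusted p under 0.05 the same comparison held 7 of 42 histone genes against 13.6% of all genes. The pair on chromosome 11 had log2 differences of -0.54 (SE 0.14) for Hist3h2ba and -0.56 (SE 0.19) for Hist3h2a, with adjusted p of 0.0778 and 0.165 in edgeR after Benjamini-Hochberg adjustment. Both were higher in the homozygous male than in any other library, and higher in the WT female than in the WT male. Hist3h2ba passed when every gene was kept in the test, a setting that called 600 genes of all kinds in place of 194. Hist2h2ab had a difference of -1.02 (SE 0.36) and Hist1h1b one of 1.03 (SE 0.37), neither past the threshold. H2afj, a replication-independent H2A gene a few kb from Hist4h4, had 147 and 144 counts in WT, 132 and 137 in heterozygotes and 133 and 166 in homozygotes. Its log2 difference was -0.20 (SE 0.14), with an adjusted p of 0.569 in edgeR after Benjamini-Hochberg adjustment. None of the 5 tested neighbours of Hist4h4 within 50 kb, chosen after its values were seen, passed. Among them Gucy2c, with 4 to 17 counts a library, had a difference of -1.35 (SE 0.63), of the same sign and near the size of that of Hist4h4. Of the 3′ processing list, Lsm11, a protein of the U7 particle that cuts histone RNA, passed with a log2 difference of 0.51 (SE 0.08) and an adjusted p of 0.00452 in edgeR after Benjamini-Hochberg adjustment. It stood at 63.8 and 114 CPM in WT, 89.3 and 91.2 CPM in heterozygotes and 102 and 89.5 CPM in homozygotes, so the WT female was lowest and the WT male highest. How Lsm11 and Hist4h4 relate was not tested.

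**Figure D5:**
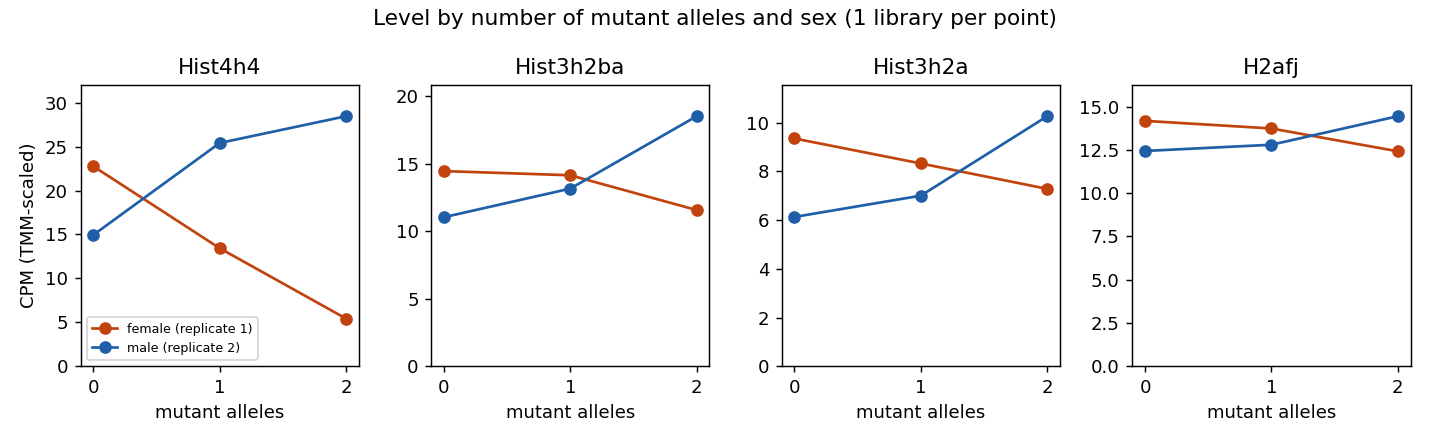
CPM by number of mutant alleles (0, 1 or 2) for Hist4h4, Hist3h2ba, Hist3h2a and H2afj, each point 1 library and each line 1 sex. For Hist4h4 the female line goes from 22.8 to 5.42 CPM and the male line from 14.9 to 28.5 CPM, and for H2afj the lines stay close.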

How the data were processed

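Libraries were made from total RNA extracted with phenol and chloroform, with a stranded Illumina TruSeq total RNA kit, per the labels' protocols. The deposited table holds raw whole-number counts per Ensembl gene for 6 libraries. Per the submitters' processing notes, the tools were Trimmomatic 0.39, HISAT2, GATK 4.2.3.0 and HTSeq 0.6.0, with the build GRCm38. Not given in the sources used here: the strand setting, the treatment of reads matching several genes, and the annotation release.

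Counts were analysed in edgeR 4.0.16 (R 4.3.3): TMM scaling (factors 0.962 to 1.03), a low-count filter by genotype (minimum count 10, minimum total 15), the quasi-likelihood F test and Benjamini-Hochberg adjustment over all 16119 genes tested, with a threshold of 0.05. CPM is TMM-scaled, and CPM per kb divides it by the GENCODE M21 exon length. Genotype, number of mutant alleles, sex with genotype, and alleles by sex were each fitted on all 6 libraries. The code was tested on simulated data. Alternatives were RLE scaling, no filter, DESeq2 1.42.0, sex as a replicate block and each library left out.

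The genes, lists and tests were chosen with earlier results of these data known. Genes named with every library's value are the 4 highest per kb in each class, those passing a test and the 3 with the smallest p in each comparison. In other lists, named genes passed or had one of the 3 smallest p against WT.

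A same-sex pair of libraries is only a shared replicate number. Stem-loops and shared windows were read from the GENCODE M21 transcripts, with windows matched on either strand.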

Additional observations from a re-analysis of the deposited data

Results flagged for a closer look

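The change of Hist4h4 per mutant allele differed between the sexes by -1.44 on the log2 scale, female minus male (SE 0.15), with an adjusted p of 0.00017 in edgeR after Benjamini-Hochberg adjustment. Its level in the females was 22.8, 13.4 and 5.42 CPM with 0, 1 and 2 mutant alleles, and in the males 14.9, 25.4 and 28.5 CPM. It is listed here because the test of the difference itself passed, with 1 library for each genotype and sex.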

How the results depend on the processing

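No alternative listed turned the direction of a called value, and Hist4h4 was the only histone gene called in the main fits. Among 27 named histone genes, the sign of the log2 fold changed under at least 1 alternative for 16 in homozygotes against WT. It did for 12 in heterozygotes against WT, 19 in homozygotes against heterozygotes and 18 per mutant allele. Female minus male it did for 8, and for the difference between the sexes per allele for 18. RLE scaling called 205 genes in place of 194 for the difference between the sexes per allele and changed no other count of calls. Over all genes, the number called in homozygotes against WT (1) was 27 without the low-count filter, 8 in DESeq2, 8 in DESeq2 without its independent filtering and 4 with the replicate block (sex), and 2 to 124 with each library left out in turn. In heterozygotes against WT (2) it was 13 without the filter and 1 to 41 with a library left out. In homozygotes against heterozygotes (2) it was 28 without the filter, 7 in DESeq2 in either form, 5 with the replicate block and 0 to 12 with a library left out. Per mutant allele (0) it was 19 without the filter, 4 in DESeq2 in either form and 0 to 45 with a library left out. Female minus male (6) it was 92 without the filter, 10 in DESeq2 and 7 to 198 with a library left out. For the difference between the sexes per allele (194) it was 600 without the filter, 77 in DESeq2, 52 without its independent filtering and 16 to 733 with a library left out. Of histone genes, female minus male called 0 to 3 with a library left out. The difference between the sexes called 2 without the filter (Hist3h2ba too) and 0 in DESeq2, which gave Hist4h4 no adjusted p but called it without its independent filtering. The log2 ratio of class means, homozygous over WT, ran from -0.10 without the homozygous male to 0.25 without the homozygous female for H2B, from -0.36 to 0.39 for H3, from -0.08 to 0.38 for H4, from 0.01 to 0.43 for H2A and from -0.02 to 0.22 for H1. The replicate block called 0 histone genes in each genotype comparison; deviations of same-numbered libraries correlated at r of 0.21, -0.03 and 0.06 over 15602 autosomal genes, so the numbers were not taken to pair libraries. Leaving out libraries for the difference between the sexes and DESeq2 without independent filtering were chosen after seeing the data. For female minus male, histone genes were called only in the fits without a WT library. Of the fits with a library left out, these also called the most genes of all kinds. With a library left out, 1 genotype keeps 1 library, so the counts of calls from such fits do not measure the spread. The cause of these differences was not tested, except that each left-out library and the removed filter change the samples or genes tested. Low counts limit the 20 untested histone genes.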

Other observations

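Of the 3 pseudogenes that carry histone symbols and were left out, Hist1h2aj had 0 counts in every library. For Hist1h2al the counts, female first, were 17 and 17 with no mutant allele, 20 and 43 with 1 and 17 and 29 with 2. Hist3h2bb-ps, whose transcript shares 50-base windows with Hist3h2ba, had 14 and 21, 19 and 16, and 14 and 38 counts in the same order. For both pseudogenes the highest count was in a male library with at least 1 mutant allele. How far reads moved between Hist3h2bb-ps and Hist3h2ba was not tested.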
